A study of Mus musculus with 9 samples.

Results

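The leptin receptor gene Lepr and 5 genes that act with its product, Leprot, Jak2, Stat3, Socs3 and Ptpn1, were followed in mouse liver across 3 diet groups. They are 6 of the 22180 genes measured, and each was represented by its brightest probe set that the array annotation gives to a single gene symbol. The set was chosen by the measured level of Lepr, which was much lower on the high-fat diet in these same arrays, so Lepr in the comparisons with the regular diet is given as a description, without a test. RNA of the livers was read on 9 microarrays with probes along whole transcripts, 3 for each group, and values are on the log2 scale, so a difference of 1 is a doubling.

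The mice were C57BL/6 per the protocols (the strain entry reads C56BL/6J) and began the study at an age of 5 weeks. The first group (RD) was fed a regular diet, the second (HFD) a high-fat diet, and the third (GFB) a high-fat diet plus 500 mg/kg of an extract of ginseng flower buds. Dosing was oral and daily, with vehicle or extract, for 12 weeks, and every liver was taken after an overnight fast. The make-up of the diets and the sex of the mice are not given in the sources used here. Nothing says whether the 3 arrays of a group came from separate mice, so the p-values measure only the spread between these arrays, which may be technical.

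Leptin is a hormone secreted by fat cells that reports energy stores. Its receptor is a class I cytokine receptor with no kinase of its own: leptin binding activates the attached kinase JAK2, which phosphorylates the long form of the receptor and the transcription factor STAT3. STAT3 then induces SOCS3, which blocks the receptor and JAK2, and the phosphatase PTP1B, encoded by Ptpn1, dephosphorylates JAK2. In liver, short forms of the receptor predominate, and shedding of its outer part supplies a soluble receptor that binds leptin in blood. Leprot, the leptin receptor overlapping transcript, encodes a small membrane protein that lowers the amount of leptin receptor at the cell surface.

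Lepr and Leprot are neighbours on chromosome 4, with differences between the diets of -4.12 and -0.21 on the log2 scale, so the upstream sequences of both are shown. Socs3 is shown because its window was the only one among the 6 genes to hold a STAT-type palindrome. The sequences are the 250 bases before each annotated start from RefSeq, mouse build GRCm38.p6, 5′ to 3′ on the strand of the gene. Capitals mark matches to 2 motifs sought on both strands, the STAT-type palindrome TTCNNNGAA and the GC box GGGCGG, which do not overlap in these windows. The coordinates belong to RefSeq, since the sources used here name no build for the array. Lepr has 2 annotated starts, 499 bases apart, at chr4:101717157-101717406 and chr4:101717656-101717905, both on the plus strand. Leprot lies upstream on the same strand, with its window at chr4:101647533-101647782, 69624 bases before the first Lepr start. The Socs3 window is at chr11:117969367-117969616 on the minus strand.
Lepr, first start: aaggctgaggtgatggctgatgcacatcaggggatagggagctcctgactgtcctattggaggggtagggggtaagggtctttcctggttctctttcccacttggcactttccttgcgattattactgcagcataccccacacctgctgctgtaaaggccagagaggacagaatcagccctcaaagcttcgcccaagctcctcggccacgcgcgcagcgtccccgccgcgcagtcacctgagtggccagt
Lepr, second start: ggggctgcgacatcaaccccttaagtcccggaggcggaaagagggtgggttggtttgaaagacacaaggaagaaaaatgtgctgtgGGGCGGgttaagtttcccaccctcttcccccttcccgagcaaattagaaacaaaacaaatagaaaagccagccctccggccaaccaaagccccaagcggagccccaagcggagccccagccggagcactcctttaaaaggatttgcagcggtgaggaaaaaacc
Leprot: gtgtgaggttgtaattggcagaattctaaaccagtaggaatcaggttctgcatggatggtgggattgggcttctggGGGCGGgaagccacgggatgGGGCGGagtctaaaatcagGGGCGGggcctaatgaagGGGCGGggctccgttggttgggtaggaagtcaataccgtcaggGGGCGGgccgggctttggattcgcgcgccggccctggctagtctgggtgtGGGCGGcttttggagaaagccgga
Socs3: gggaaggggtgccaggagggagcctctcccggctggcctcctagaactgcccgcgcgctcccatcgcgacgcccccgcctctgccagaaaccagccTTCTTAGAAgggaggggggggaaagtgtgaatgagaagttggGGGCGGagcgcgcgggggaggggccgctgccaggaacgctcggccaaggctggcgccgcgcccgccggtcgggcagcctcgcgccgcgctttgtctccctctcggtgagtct

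The first Lepr window held neither motif, and the second held 1 GC box. The Leprot window held 6 GC boxes, a number reached by 0.886% of the 32851 promoter windows of this length in the RefSeq table. At least 1 GC box was present in 32.7% of those windows. The Socs3 palindrome, TTCTTAGAA, begins 154 bases before the start, and 7.02% of all windows held a match to that motif. Jak2 and Ptpn1 had 2 GC boxes each, and Stat3 and Socs3 had 1 each. A match describes the letters of the window only, and binding was not measured.

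Lepr read 6.23, 8.73 and 9.30 in the 3 regular-diet arrays, 3.77, 4.26 and 3.88 on the high-fat diet, and 4.23, 5.02 and 4.21 on the high-fat diet with extract. Every regular-diet array was above every high-fat-fed array, and the closest pair was 1.21 apart. The regular-diet arrays were also far from each other: replicate 1 was 3.08 below replicate 3, an 8.43-fold range within the group. The standard deviation (SD) of Lepr in the regular-diet group, 1.64, was the 3rd highest of the 22180 genes, against a median gene SD of 0.12.

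The group means of Lepr were 8.09 ± 1.64 (SD, n = 3) on the regular diet, 3.97 ± 0.25 (SD, n = 3) on the high-fat diet and 4.48 ± 0.46 (SD, n = 3) with extract. The mean on the high-fat diet was therefore -4.12 relative to the regular diet, with a standard error of 0.65, or 17.3-fold lower. With extract it was -3.60 relative to the regular diet, with the same standard error, or 12.1-fold lower. Both were the lowest differences of any gene in their comparison, which is how the gene was picked, and the 2 comparisons share the regular-diet arrays. Without regular-diet replicate 1 the first difference was -5.05, and without replicate 3 it was -3.51. The second difference was -4.53 without replicate 1 and -2.995 without replicate 3.

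On the high-fat diet, with or without extract, 5 of the 6 arrays read Lepr below 4.74, the median of all gene means, where background can make up much of the signal. A fold change against such a level can understate the true ratio. Measured only down to that median, the regular-diet mean stood 3.34 above it, which is 10.2-fold. The array carried 1 probe set for Lepr, so long and short forms of the receptor were not told apart.

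Between the high-fat groups Lepr was tested, but this contrast is not free of the choice of the gene. Lepr was picked for a low level on the high-fat diet in these same arrays, which can tilt this difference upward. The interval and p-value do not allow for that. Lepr was 0.51 higher with extract, a 1.43-fold difference with a standard error of 0.65 and a 95% interval from -0.96 to 1.99. It did not pass the limma test over all genes (adjusted p = 0.931). The groups overlapped: extract replicates 1 and 3 lay within the range of the high-fat diet arrays, and replicate 2 lay above it. The width of this interval comes mostly from the regular-diet arrays, which share in the estimate of the spread. With only the 6 arrays compared the standard error was 0.24 and the adjusted p 0.793, and without regular-diet replicate 1 they were 0.25 and 0.804. All 3 extract arrays were below all 3 regular-diet arrays.

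**Figure D1:**
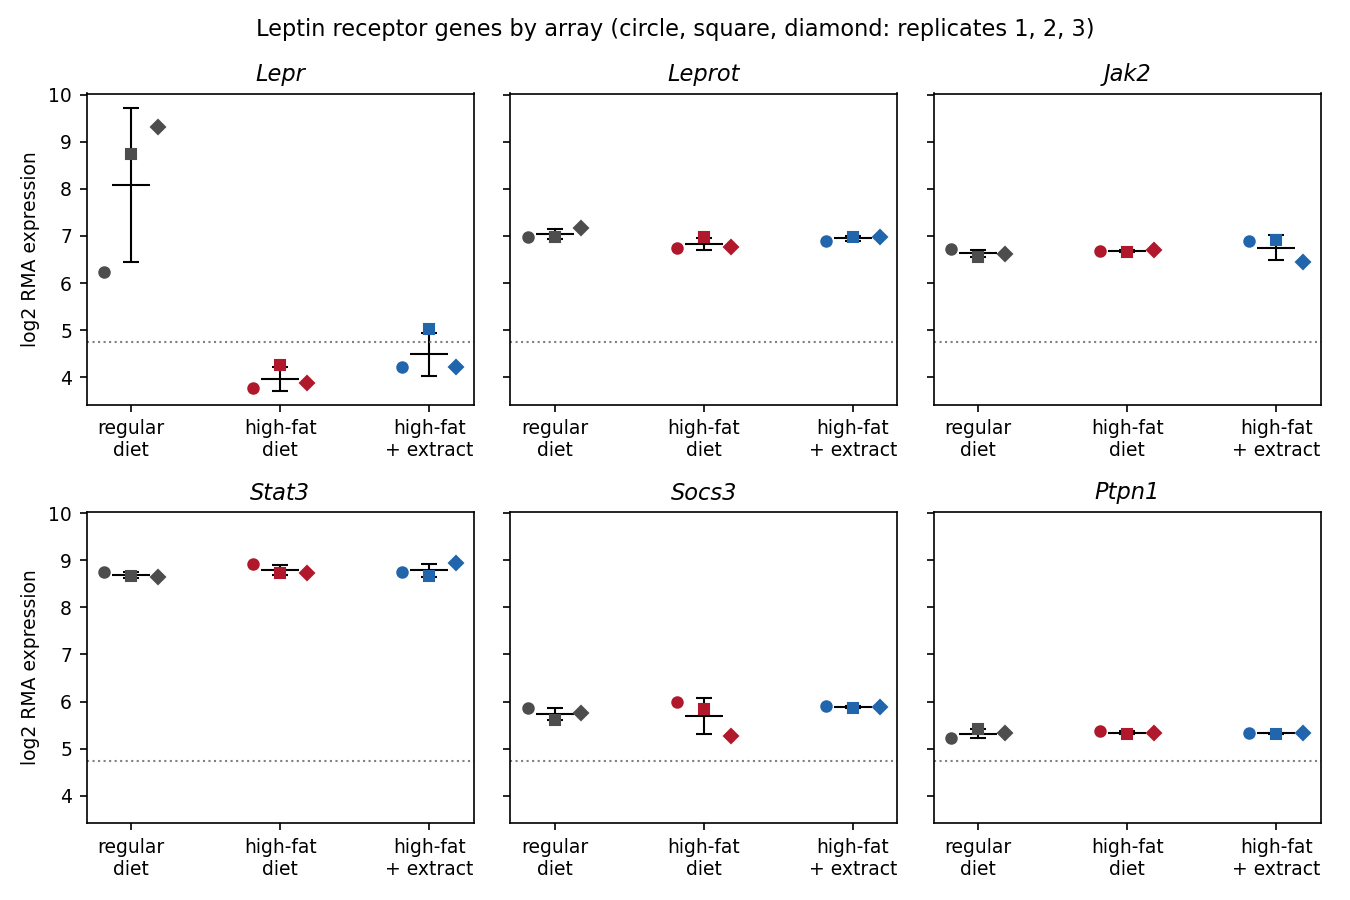
The log2 level of each of the 6 genes is plotted by array for the regular diet (RD), high-fat diet (HFD) and high-fat diet with extract (GFB), with points for arrays, bars for group means and a dotted line at 4.74, the median of all gene means. Lepr spans 3.77 to 9.30, while the groups of the other 5 genes overlap.

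Leprot read 6.97, 6.98 and 7.17 on the regular diet, 6.75, 6.99 and 6.76 on the high-fat diet, and 6.89, 6.97 and 6.97 with extract. High-fat diet replicates 1 and 3 were the lowest of the 9 arrays, but replicate 2 was above regular-diet replicates 1 and 2. The difference between the high-fat and the regular diet was -0.21 ± 0.09 (standard error), with a 95% interval from -0.41 to -0.01. Its unadjusted limma p was 0.0425 and its adjusted p was 0.351. With extract Leprot was 0.11 above the high-fat diet (adjusted p = 0.881) and -0.10 relative to the regular diet (adjusted p = 0.72). The Leprot values of 3 arrays are exactly equal, a trait of the median-polish summary that 12621 of the 22180 genes (56.9%) showed between at least some arrays.

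Jak2, the kinase, read 6.71, 6.55 and 6.62 on the regular diet, 6.69, 6.66 and 6.69 on the high-fat diet, and 6.89, 6.92 and 6.45 with extract. Extract replicates 1 and 2 were the highest of the 9 arrays and extract replicate 3 was the lowest. The high-fat diet differed from the regular diet by 0.05 ± 0.12, with a 95% interval from -0.22 to 0.32 and an adjusted p of 0.907. The differences were 0.07 for extract against the high-fat diet (adjusted p = 0.952) and 0.12 for extract against the regular diet (adjusted p = 0.742).

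Stat3, the transcription factor, read 8.75, 8.66 and 8.64 on the regular diet, 8.91, 8.72 and 8.73 on the high-fat diet, and 8.75, 8.67 and 8.93 with extract. High-fat diet replicate 1 and extract replicate 3 were the highest, and the groups overlapped in every comparison. The difference for the high-fat diet was 0.10 ± 0.09, with an interval from -0.10 to 0.30 (adjusted p = 0.703). It was 0.10 for extract against the regular diet (adjusted p = 0.718), and the extract mean was within 0.01 of the high-fat diet mean (adjusted p = 1.0). Phosphorylated STAT3, the active form, is not read by an RNA array.

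Socs3, the feedback inhibitor, read 5.87, 5.61 and 5.75 on the regular diet, 6.00, 5.84 and 5.26 on the high-fat diet, and 5.90, 5.86 and 5.88 with extract. The high-fat diet arrays held both the highest and the lowest value, and the extract arrays lay within 0.04 of each other. The diet difference was -0.04 ± 0.17 with an interval from -0.41 to 0.33 (adjusted p = 0.945). The extract difference from the high-fat diet was 0.18, with an interval from -0.19 to 0.55 (adjusted p = 0.903). Extract against the regular diet gave 0.14 (adjusted p = 0.782). A dimmer second probe set for Socs3 lay between 3.793 and 4.002 in all arrays.

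Ptpn1, the JAK2 phosphatase, read 5.22, 5.42 and 5.32 on the regular diet, 5.37, 5.31 and 5.32 on the high-fat diet, and 5.32 in all 3 extract arrays. The high-fat-fed arrays lay inside the regular-diet range. The diet difference was 0.02 ± 0.07, with an interval from -0.14 to 0.18 (adjusted p = 0.948). Extract differed by -0.01 from the high-fat diet (adjusted p = 0.985) and by less than 0.01 from the regular diet (adjusted p = 0.994).

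Across the whole array, 1.34% of genes passed the limma test between the high-fat and regular diets (297 genes), 0.00451% between extract and high-fat diet (1 gene) and 0.442% between extract and regular diet (98 genes). Against that background, 0 of the 16 comparisons tested among the 6 genes passed at an adjusted p under 0.05. At an unadjusted p under 0.05, 1 of the 5 signalling genes other than Lepr, namely Leprot, passed between the diets, where 13.3% of all genes did. The intervals leave room for diet differences of up to about 0.4 in Leprot and Socs3, so the results bound these genes rather than show equal levels.

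**Figure D2:**
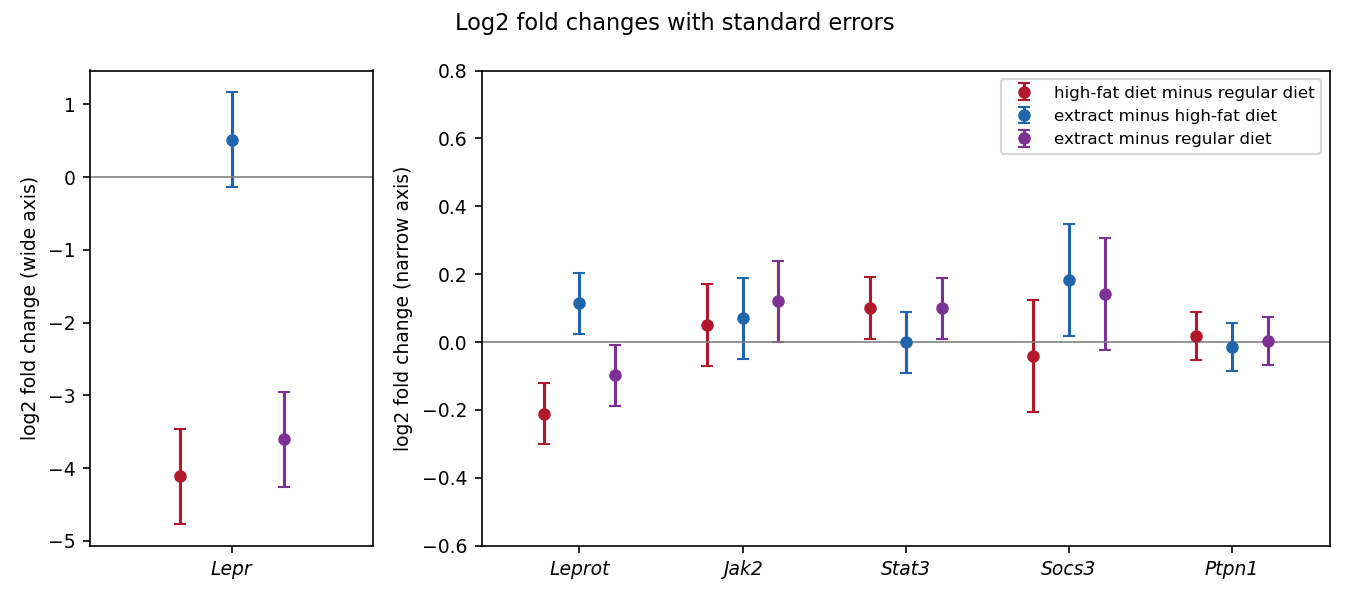
Log2 differences between group means are plotted for each gene in the 3 comparisons, with bars for the standard error of the limma model and a wider axis for Lepr than for the other genes. Lepr reaches -4.12 and -3.60 against the regular diet and 0.51 for extract against the high-fat diet, and the points of the other 5 genes lie between -0.21 and 0.18.

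The genes next to Lepr on chromosome 4 did not pass the limma test between the diets. Upstream, Ak4 differed by 0.02, Dnajc6 by -0.01 and Leprot by -0.21. Downstream, Pramel17 differed by -0.25 and Pramel19 by 0.31, and C130073F10Rik by less than 0.01. The adjusted p-values of these 6 neighbours ran from 0.351 to 0.997. Dnajc6, Pramel17, C130073F10Rik and Pramel19 were below 4.74 in all arrays, so only Ak4 and Leprot give a clear reading beside Lepr.

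A list of genes that carry or restrain leptin receptor signalling, without Lepr itself, had 28 measured genes (of 31 listed). Of these, 1 rose and 1 fell between the high-fat and regular diets, against 0.821% of all genes that rose and 0.518% that fell. The 28 were 14 higher and 14 lower, with a median difference of -0.01, and the median of all genes was within 0.01 of 0. Irs2, an insulin receptor substrate that JAK2 can also engage, fell: it read 6.81, 7.19 and 6.89 on the regular diet, 5.98, 6.06 and 6.00 on the high-fat diet, and 6.45, 6.83 and 6.90 with extract. The Irs2 groups on the 2 diets were fully apart, the difference was -0.95 ± 0.13 (adjusted p = 0.0145), and the call was lost without regular-diet replicate 2, high-fat diet replicate 1 or high-fat diet replicate 3. With extract Irs2 was 0.71 above the high-fat diet in arrays that did not overlap, but the adjusted p was 0.325.

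Pik3r1, the regulatory subunit of phosphoinositide 3-kinase, rose by 0.69 ± 0.13 between the diets (adjusted p = 0.0369), a call that held in 2 of 9 fits with 1 array left out. Pik3cb, a catalytic subunit, differed by 0.36 (adjusted p = 0.213). Lep, the gene of leptin itself, which is made in fat, was between 2.62 and 3.24 in all arrays, below the median gene, and differed by 0.30 (adjusted p = 0.303). In extract against the high-fat diet 0 of the 28 genes passed, and 2 were at an unadjusted p under 0.05, where 5.98% of all genes were.

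Lepr belongs to the class I cytokine receptors, and 15 other receptors of this family were measured (of 19 listed, without Lepr). Of these, 1 rose between the diets and 0 fell, against 0.821% of all genes that rose and 0.518% that fell. The receptor that rose was Ghr, the growth hormone receptor, which was higher by 0.51 ± 0.09 (adjusted p = 0.0287) with no overlap between the diets. The Ghr call held in 2 of 9 fits with 1 array left out. The 15 receptors were 7 higher and 8 lower with a median of -0.02, and the lowest difference among them was -0.11. Lifr, the leukaemia inhibitory factor receptor, differed by 0.48 (adjusted p = 0.434), and Osmr, the oncostatin M receptor, by 0.16 (adjusted p = 0.58).

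All 10 listed genes of receptor trafficking and shedding were measured, and 0 passed between the diets, where 1.34% of all genes did. At an unadjusted p under 0.05 there were also 0 of the 10, where 13.3% of all genes were. The differences of the 10 ran from -0.18 to 0.16. Leprotl1, the paralogue of Leprot, differed by 0.13 (adjusted p = 0.542). Lrp1, an endocytic receptor, differed by 0.16 (adjusted p = 0.515), and Adam17, a sheddase, by 0.11 (adjusted p = 0.786).

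Among 30 measured STAT3 target and acute-phase genes of liver (of 31 listed), 6 rose and 0 fell between the diets. Of all genes 0.821% rose and 0.518% fell. Like the other lists, this one was chosen with earlier results of these data known. The count beside the share of all genes is thus a description and no test of the list. The 30 were 28 higher and 2 lower, with a median of 0.27. Lcn2, which encodes an iron-siderophore binding protein, was higher by 2.73 ± 0.35 (adjusted p = 0.0131). Steap4, a metalloreductase, was higher by 1.69 ± 0.13 (adjusted p = 0.00147). The other 4 were the serum amyloid genes Saa3 and Saa4, the pentraxin gene Apcs and Serpina3n. Of the 9 fits with 1 array left out, Saa4 and Steap4 passed in 9, Lcn2 in 8, Saa3 in 7, and Apcs and Serpina3n in 1 each. With extract against the high-fat diet 0 of the 30 passed, and 5 were at an unadjusted p under 0.05, where 5.98% of all genes were. The median was -0.13, or within 0.01 of 0 without high-fat diet replicate 1. Stat3 RNA differed by 0.10 between the diets, but phosphorylated STAT3 was not read. Other cytokine receptors than Lepr also act through STAT3, and the cause of the rise in this list was not tested. Without regular-diet replicate 2, regular-diet replicate 3 or high-fat diet replicate 3, each left out alone, 3 of the 30 rose. In those fits 0.261%, 0.528% and 0.284% of all genes were called, against 1.34% with all arrays. At least 27 of the 30 stayed higher in each.

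Of 23 measured fasting-induced liver genes (of 25 listed), 6 fell and 0 rose between the diets, with 20 lower and 3 higher and a median of -0.54. Of all genes 0.518% fell and 0.821% rose. Here too the list was chosen with earlier results of these data known, so its count is a description. The 6 were Ehhadh and Cyp4a14 of fatty acid oxidation, Acot1, the lipid droplet gene Plin5, and Got1 and Asl of amino acid and nitrogen metabolism. Ehhadh was lower by a log2 difference of -1.87 ± 0.20 (adjusted p = 0.00687) and Acot1 by -1.77 ± 0.15 (adjusted p = 0.00276). The mean level of the list was 9.12, 9.42 and 9.49 in the regular-diet arrays and between 8.49 and 8.95 in the high-fat-fed arrays. Regular-diet replicate 1 was thus the lowest of its group for this list as it was for Lepr, and the part of the fasting response in the Lepr difference was not tested. Ehhadh, Acot1 and Plin5 passed in 9 of the 9 fits with 1 array left out, Got1 and Cyp4a14 in 2 and Asl in 1. The count of 6 became 3 without each of regular-diet replicates 2 and 3, high-fat diet replicates 1 and 3, and extract replicates 1 and 2. In these fits the share of all genes called also fell, from 1.34% to between 0.261% and 0.69%. At least 20 of the 23 stayed lower in each, with a median between -0.54 and -0.43.

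Of 9 measured liver genes known to respond to leptin (of 10 listed), 1 fell and 0 rose between the diets. Of all genes 0.518% fell and 0.821% rose. Igfbp2, an insulin-like growth factor binding protein, read 9.91, 10.93 and 11.14 on the regular diet, 9.07, 8.43 and 8.55 on the high-fat diet, and 9.36, 9.94 and 10.09 with extract. The diet groups did not overlap, and the difference was -1.98 ± 0.32 (adjusted p = 0.0243), a call that held in 4 of 9 fits with 1 array left out. With extract Igfbp2 was 1.11 above the high-fat diet (adjusted p = 0.693). Srebf1, a regulator of fat synthesis, differed by 1.05 between the diets (adjusted p = 0.098) and Fasn, fatty acid synthase, by 0.87 (adjusted p = 0.207).

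Extract against the regular diet shares its regular-diet arrays with the diet comparison. In it 0 of the 28 signalling genes, 0 of the 15 receptors and 0 of the 10 trafficking genes passed, against 0.442% of all genes, with 2, 4 and 1 of them at an unadjusted p under 0.05, where 12.1% of all genes were. Of all genes 0.261% rose and 0.18% fell. Saa4 and Steap4 rose among the STAT3 and acute-phase genes. Ehhadh, Acot1 and Plin5 fell among the fasting genes. Apoa4, an apolipoprotein, fell by 1.66 on the log2 scale among the leptin-responsive genes (adjusted p = 0.00783). Without extract replicate 1, and likewise without extract replicate 2, 0 genes of these 3 lists passed. Of all genes only 0.0135% and 0.00902% passed in those 2 fits. Over the 9 fits with 1 array left out, Saa4 and Apoa4 held in 7, Ehhadh, Acot1 and Plin5 in 5, and Steap4 in 4.

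**Figure D3:**
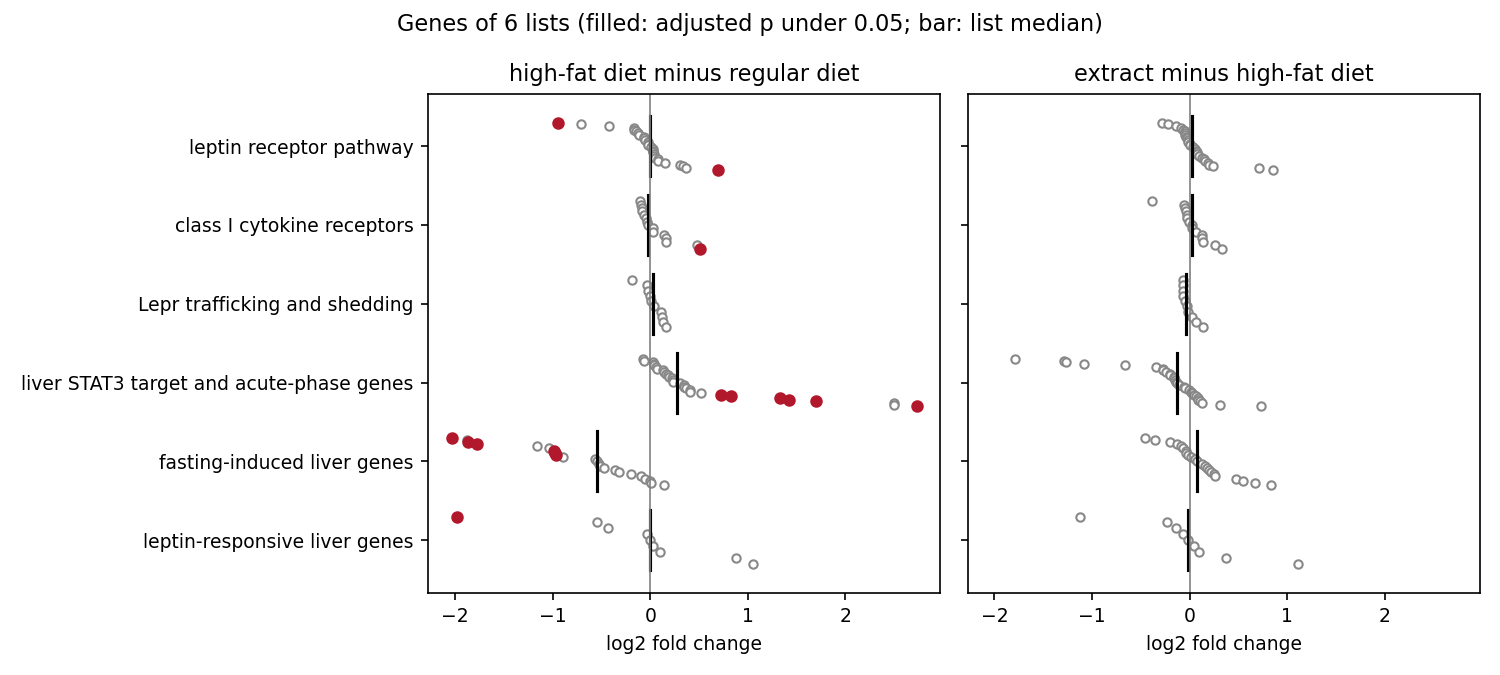
Each point is the log2 difference of 1 gene of the 6 lists, for the high-fat against the regular diet on the left and extract against the high-fat diet on the right. Filled points passed at an adjusted p under 0.05 and black bars mark list medians. Filled points are on the left panel only, where the STAT3 and acute-phase list has a median of 0.27 and the fasting list one of -0.54.

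The tissue label fitted its markers, with Alb between 13.48 and 13.57 in all arrays. Fewer cells of a type and less RNA per cell cannot be told apart in these bulk livers. Between the diets 0.821% of all genes rose and 0.518% fell. Of 10 endothelial markers 0 passed between the diets, with 3 higher and 7 lower and a median of -0.19. The levels of a list were also summed on the linear scale, which weighs the brightest markers most. In log2 this sum was 10.70 to 10.89 on the regular diet, 10.40 to 10.69 on the high-fat diet and 10.69 to 10.97 with extract. Of 11 stellate cell markers, the collagen genes Col1a1 and Col3a1 rose, and the summed level was 10.82 to 11.10, 10.80 to 10.86 and 10.86 to 11.02 in the same order. The mean log2 level of these markers, which weighs each alike, went the other way. It was 6.40 to 6.55, 6.59 to 6.73 and 6.54 to 6.62, higher on the high-fat than on the regular diet without overlap. Of 9 hepatocyte markers Cps1 fell, and the summed level was 15.00 to 15.06, 14.94 to 15.02 and 15.02 to 15.07. The mean level of the hepatocyte markers was 10.64 to 10.71, 10.42 to 10.59 and 10.68 to 10.70. By that measure the high-fat diet arrays were below the regular-diet arrays without overlap. All 10 Kupffer and macrophage markers missed the threshold. Their mean level was 6.35, 6.62 and 6.97 in the regular-diet arrays, 6.59 to 6.87 on the high-fat diet and 6.41 to 6.88 with extract. At an unadjusted p under 0.05 between the diets were 4 endothelial, 4 stellate cell, 4 hepatocyte and 0 Kupffer markers. The share of all genes was 13.3%. Of 7 white adipose markers Car3, which liver also expresses, rose, while Adipoq, Lep and Slc36a2 were below 4.74 in all arrays. All 7 neutrophil markers and 7 of 8 lymphocyte markers were below 4.74 as well, and 0 of the 5 bile duct and 0 of the 4 pancreas markers measured passed. None of the 5 red blood cell markers had a probe set of a single symbol. With 1 array left out, Col3a1 passed in 8 of 9 fits, Col1a1 in 5, Cps1 in 4 and Car3 in 2. With extract against the high-fat diet 4 endothelial, 5 stellate cell and 2 hepatocyte markers were at an unadjusted p under 0.05, where 5.98% of all genes were. The part of cell composition in the Lepr difference was not tested.

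Genes with a pattern like that of Lepr were sought among 675 genes with a mean at or above the median and a range of at least 1. By Pearson correlation over the 9 arrays the 10 most alike were Kif21a, Tbc1d8, Csad, Tmtc2, Gstt2, Csrp2, Scamp1, Samm50, Hgd and B4galt5, with r from 0.94 to 0.98. Many genes came close: 30 of the 675 had an r of at least 0.9 and 41 an r of -0.9 or less. Kif21a, a kinesin gene, read 8.02, 8.42 and 8.57 on the regular diet, 7.38, 7.52 and 7.57 on the high-fat diet, and 7.41, 7.53 and 7.57 with extract. Lepr was picked for the lowest difference of any gene, so a smaller drop in every other gene was fixed by that choice. The differences of the 10 genes between the diets lay between -1.42 and -0.56. Over the 6 high-fat-fed arrays alone their r with Lepr was between 0.02 and 0.70. Over deviations from the group means it was between 0.68 and 0.95. The 10 genes were picked by r over all 9 arrays, which already holds the diet contrast and the spread within the regular-diet arrays. Their fall on the high-fat diet and their high r over deviations were thus largely fixed by that choice. The 5 genes most opposite to Lepr were Sult1b1, Prg4, C4bp, Gbp10 and Slc22a7, with r from -0.98 to -0.96.

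Over deviations from the group means, which set the diet contrast aside, the 10 genes most like Lepr were Fmo4, Alkbh6, Dbp, Wee1, Ciapin1, Tbc1d8, Alg6, Acsl4, Pnpla2 and Slc20a1, with r from 0.93 to 0.99. The regular-diet arrays supply 90.6% of the squared deviations of Lepr, so this order mostly reflects how far replicate 1 lay below replicates 2 and 3. Of the 10 genes, 7 were lower on the high-fat than on the regular diet, as Lepr was. Dbp and Wee1, both genes with a daily rhythm in liver, and Alg6 shared that deviation but not the direction of the diet contrast. They were higher on the high-fat diet by 0.33, 0.86 and 0.35, and did not pass the limma test (adjusted p = 0.578, 0.423 and 0.617). Dbp read 8.63, 9.37 and 9.62 on the regular diet and 9.51 to 9.58 on the high-fat diet. Wee1 read 5.12, 6.81 and 6.75 on the regular diet and 6.81, 7.44 and 7.003 on the high-fat diet. The correlations of Dbp and Wee1 with Lepr over all 9 arrays were -0.14 and -0.20, and that of Alg6 was 0.03. What Lepr shares with these genes beyond the spread of the regular-diet arrays was not tested.

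**Figure D4:**
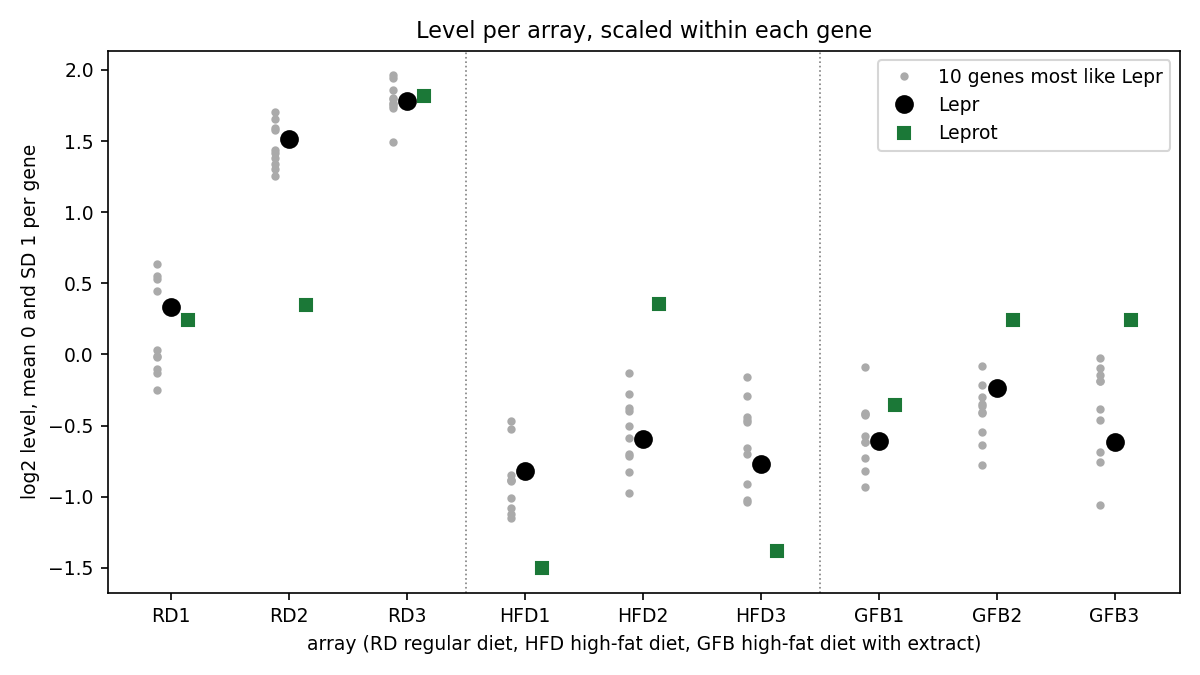
The log2 levels of Lepr (black), Leprot (green) and the 10 genes most like Lepr over the 9 arrays (grey) are plotted by array after scaling each gene to mean 0 and SD 1. Lepr and its like genes are highest in regular-diet replicates 2 and 3, and Lepr in replicate 1 lies between these and all high-fat-fed arrays, while Leprot in regular-diet replicate 1 sits level with extract replicates 2 and 3.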

How the data were processed

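Liver RNA of 9 mouse arrays (3 regular diet, 3 high-fat diet, 3 high-fat diet with extract) was read as the deposited log2 values per probe set, which the authors made by RMA with oligo, per the submitters' processing notes, with no versions given. RMA corrects background, makes the arrays' distributions equal and summarises probes by median polish. A shift shared by most genes is thus lost, and dim genes stay close to background. The number of arrays limits the precision.

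Of the probe sets, 23521 had 1 gene symbol, 1814 had several and 16010 had none; the brightest single-symbol probe set stood for each of 22180 genes. Symbols came from the platform annotation, checked against RefSeq GRCm38.p6 (193 unmatched).

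A mean per group was fitted to all 9 arrays with limma 3.58.1 in R 4.3.3. Moderated two-sided p-values were adjusted by Benjamini-Hochberg over all genes, and calls are at an adjusted p under 0.05. The script was tested on simulated data. Lepr was not tested against the regular diet.

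The members and lists were chosen with earlier results of these data known. Named genes are the 6 members, their other probe sets, the 3 genes on each side of Lepr, list genes past the threshold or among the 4 smallest p-values of a list, and the genes most like or opposite to Lepr, without predicted genes and small RNAs. Adam17, Osmr and Fasn, and the genes named for the cell type lists, were taken from the lists to state their values. Alternatives were a variance trend with robust fitting, only genes at or above the median, the mean of probe sets, renewed quantile normalization, a median shift, the replicate number as a block, only the 6 arrays compared, and each array left out. Promoter windows were read from the RefSeq table.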

Additional observations from a re-analysis of the deposited data

How the results depend on the processing

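Over all alternatives, 0 of the 16 tested comparisons among the 6 genes passed, and the adjusted p of Lepr between extract and high-fat diet ran from 0.793 to 0.987. That Lepr difference kept its sign, from 0.25 to 0.66 with 1 array left out. The choice of Lepr by its low level on the high-fat diet can favour that sign. In the order high-fat against regular diet, extract against high-fat diet and extract against regular diet, calls numbered 597, 4 and 232 among genes at or above the median (fewer genes tested) and 15, 0 and 34 in fits of only the 6 arrays compared. With 1 array left out they ranged from 58 to 452, from 0 to 3 and from 2 to 267. Differences near 0 turned sign: Socs3 between the diets was 0.006 by the mean of probe sets, Stat3 for extract against high-fat diet was 0.0002 after renewed quantile normalization and 0.0047 after a median shift, and Ptpn1 for extract against regular diet was -0.0075 after a median shift. With 1 array left out, the diet difference ranged from -0.1911 to 0.1759 for Socs3 and from -0.0342 to 0.0667 for Ptpn1. The extract difference from the high-fat diet ranged from -0.0133 to 0.2217 for Jak2, from -0.0759 to 0.0612 for Stat3, from -0.0343 to 0.3328 for Socs3 and from -0.0266 to 0.0041 for Ptpn1, and Ptpn1 against the regular diet from -0.0486 to 0.0523. The causes of these shifts were not tested beyond what each alternative itself leaves out.

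With the replicate number as a block, the counts were 201, 1 and 68. Of 9 same-numbered pairs, 1 had deviations correlated above 0.1, with a range from -0.0511 to 0.1727. Differently numbered pairs ranged from -0.1295 to 0.1309. With so few arrays this check cannot settle whether the numbers pair them. List counts with arrays left out were chosen after seeing the data. Without regular-diet replicate 1, 6 fasting genes fell and 5 STAT3 and acute-phase genes rose between the diets, where 2.04% of all genes were called. Dim signal limits the reading of Lepr on the high-fat diet.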

Other observations

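Extract replicate 3 stood apart from extract replicates 1 and 2 in several genes downstream of cytokine receptors, a pattern chosen after the values were seen. Socs2, a growth hormone induced member of the Socs family, read 7.62, 7.74 and 5.35 in extract replicates 1, 2 and 3, against 5.97, 5.63 and 6.54 on the high-fat diet. Cish, another growth hormone induced member of that family, read 5.76, 5.69 and 4.92 with extract. The acute-phase genes Saa2 and Orm2 ran the other way: Saa2 read 6.78, 7.09 and 10.44, and Orm2 read 6.47, 6.58 and 9.68, in the same order. The mean level of the whole STAT3 and acute-phase list was 8.84, 8.94 and 9.29 with extract. On the high-fat diet it was 9.37, 9.19 and 9.21. By that mean extract replicate 3 was level with the high-fat diet arrays, and replicates 1 and 2 lay below them. Jak2 was lowest and Stat3 highest in extract replicate 3, at 6.45 and 8.93, and Lepr, at 4.21, was level with extract replicate 1. Saa2 also split the regular-diet arrays, at 5.84, 9.63 and 5.15, where replicate 2 was high, while Lepr in that array was 8.73.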
